A study of Homo sapiens with 90 samples.

Results

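The 34 genes followed here encode the enzymes and regulators of fatty acid oxidation and of the ketone body steps joined to it. They were taken by symbol, as a list of genes of 1 function. All 34 are rows of the deposited table of 28307 genes, and all 34 passed the filter on low counts that left 12125 genes for testing. By role, 4 belong to the carnitine shuttle, 15 to mitochondrial beta oxidation and its electron transfer, 7 to peroxisomal oxidation, 4 are acyl-CoA synthetases, 2 are ketone body enzymes and 2 are regulators.

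Fatty acids are first activated to acyl-CoA by synthetases, carried across the inner mitochondrial membrane as carnitine esters, and shortened in repeated rounds of dehydrogenation, hydration, oxidation and thiolysis. Peroxisomes shorten very long and branched chains and bile acid intermediates, and pass the shortened products on to mitochondria. In the liver much of the acetyl-CoA from fatty acids is turned into ketone bodies, and the nuclear receptor PPARA raises transcription of many of these genes during fasting.

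HepaRG cells are bipotent liver progenitors of human origin, a line whose cells mature in culture towards hepatocytes and bile duct cells. The parental line, labelled wild type, was compared with a line stably transduced by a lentiviral vector to express the drug-metabolising enzyme CYP2D6. Each line was profiled as undifferentiated progenitors on days 0, 2, 4, 7 and 14, labelled without DMSO, and as differentiated cells that were either freshly differentiated or thawed. Both kinds of differentiated cells were taken on days 30 and 32 without DMSO and on days 32, 37 and 44 with DMSO. Per the labels' protocols, cells were kept for 2 weeks in hydrocortisone and insulin medium and then differentiated for 2 weeks with 1.7% DMSO. Whether the day 30 cells were in DMSO until harvest is not given in the sources used here. Nor are the promoter of the transgene and whether the transduced line is 1 clone. The library names count days anew from day 30, as from day 0 in progenitors, and when cells were plated is not given. A change from day 30 to day 32 without DMSO thus cannot be told apart from one of DMSO withdrawal or replating. Likewise, a change from progenitor day 0 to day 2 cannot be told apart from one of plating. These 15 conditions in 2 genotypes gave 30 groups, each with 3 replicates lettered a to c, or 90 libraries. Nothing in the labels says that the replicates came from separate cultures, so p-values measure only the spread between these samples, which may be technical.

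The depth of 87 libraries lay between 723391 and 3882866 counts (median 1935150). The 34 genes took between 0.192% and 0.429% of them. The other 3 libraries, all parental replicate c, were nearly empty, with totals of 505 counts at fresh day 30, 212 at progenitor day 2 and 10137 at progenitor day 14. They are left out of every level given here. CYP2D6 itself was at 0 to 4.00 CPM in the parental and 2.35 to 28.3 CPM in the transduced libraries. Here CPM is the count scaled to the library's total over the tested genes times its TMM factor. The hepatocyte markers ALB and APOA1 were counted in all 87 libraries, with medians of 11035 and 2272 CPM. Of the biliary and progenitor markers, the keratins KRT19 and KRT7 had medians of 230 and 1.92 CPM, and EPCAM had no count. Of the defining markers of other cells, CD3E had 3 counts, CDH5 11, PTPRC 27 and MS4A1 45 over all 87 libraries, while the macrophage genes CD68 and CD14 were counted in all 87, with medians of 41.9 and 18.7 CPM. The fibroblast, stellate and endothelial genes COL1A1, PDGFRB and PECAM1 had 421, 491 and 199 counts in 71, 83 and 77 libraries, with medians of 2.15, 3.08 and 1.00 CPM. In these bulk libraries, fewer cells of a type and less RNA per cell cannot be told apart.

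The sequences before 3 sets of start sites are shown, for a gene pair with a shared upstream stretch, for a gene with a motif match and for the gene of widest range. HADHA and HADHB encode the subunits of the mitochondrial trifunctional protein and are read away from each other, with start sites 307 bases apart, so 1 stretch of DNA lies before both. ACAA2 encodes a mitochondrial thiolase. PDK4 encodes a kinase that switches off pyruvate dehydrogenase, and it had the widest range of the 34 genes. The sequences are those of RefSeq on GRCh38.p14, written 5′ to 3′. The first lies at chr2:26244689-26244882 on the plus strand, the next at chr18:49813557-49813649 on the minus strand, and the last at chr7:95596517-95596616 on the minus strand.
HADHA and HADHB: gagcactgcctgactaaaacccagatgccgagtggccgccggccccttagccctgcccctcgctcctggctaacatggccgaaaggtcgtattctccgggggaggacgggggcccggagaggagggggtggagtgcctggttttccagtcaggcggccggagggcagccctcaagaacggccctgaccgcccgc
ACAA2: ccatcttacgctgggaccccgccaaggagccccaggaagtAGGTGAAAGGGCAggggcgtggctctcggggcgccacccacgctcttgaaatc
PDK4: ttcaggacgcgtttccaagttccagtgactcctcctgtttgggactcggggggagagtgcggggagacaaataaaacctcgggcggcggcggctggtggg

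The capitals mark a match to a direct repeat of AGGTCA with 1 base between the copies, the form of site that PPARA binds with its partner RXR, with at most 2 mismatches. Such a match lay in 2 of the 39 promoters held for 27 of the 34 genes (5.13%), those of ACAA2, 76 to 64 bases before the start, and of 1 start of ACSL1. Of all 35116 promoters of the same 300 bases, 2.97% held 1. The sequence TCAAGGTCA, an ERR-type site that holds AGGTCA itself, was in 0 of the 39 and in 0.353% of all promoters. CCGGAAG, an ETS-type sequence, was in 6 of the 39 (15.4%) and in 10.3% of all. Both strands were searched. A match is a description of these letters and not of binding, and a window without one says nothing of the factor.

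Over the 15 conditions, 28 of the 34 genes had their lowest mean in progenitors on day 2. Their highest means were spread, with 9 genes at fresh day 44, 8 at fresh day 30, 6 at progenitor day 14 and 5 at fresh day 37. On a scale of log2(CPM + 1), PDK4 spanned 5.13 between its lowest and highest condition, BDH1 4.02, ACOX2 3.72 and EHHADH 3.16, whereas ECI2, HADHA and ETFA spanned 0.70, 0.64 and 0.56. A ketone body enzyme and a pair of peroxisomal enzymes thus came next after PDK4.

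**Figure D1:**
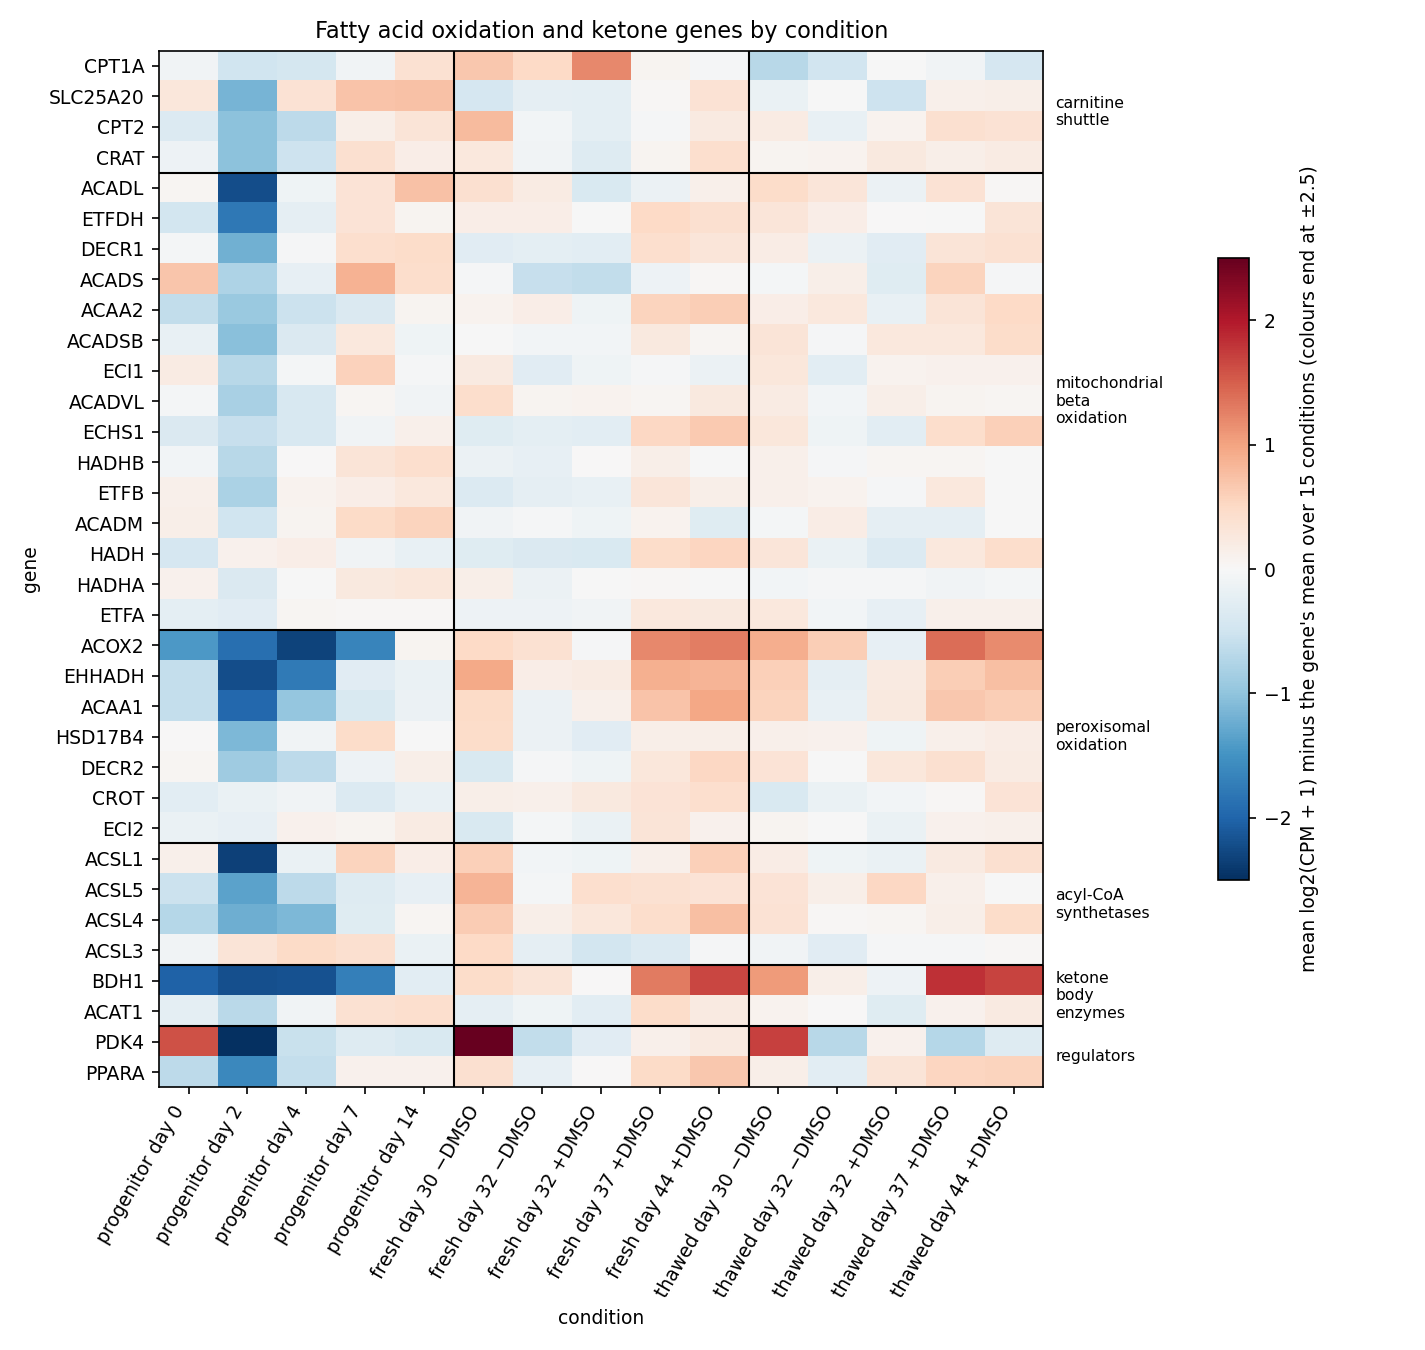
Mean level of the 34 genes in each of the 15 conditions, as log2(CPM + 1) minus the gene's mean over conditions, with parental and transduced libraries together and genes grouped by role. The column of progenitor day 2 is the lowest for 28 of the 34 genes, and PDK4 is high at progenitor day 0, fresh day 30 and thawed day 30.

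Progenitors on day 2 were compared with day 0 first. Most of the pathway was lower: 24 of the 34 genes fell and 1, the mitochondrial dehydrogenase HADH, rose, against a background of 16.9% of all tested genes lower and 14.1% higher. The median log2 change was −0.84 for the 34 genes and −0.06 for all genes. By role, 2 of 4 carnitine shuttle genes, 12 of 15 mitochondrial genes, 4 of 7 peroxisomal genes, 3 of 4 synthetases, 1 of 2 ketone body enzymes and both regulators fell. PDK4, ACADL and ACSL1 fell most.

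ACSL1, the main liver synthetase of long-chain acyl-CoA (chromosome 4, 184755595 to 184826594, GRCh38.p14), ranged from 154 to 235 CPM with a median of 190.5 on day 0. On day 2 it was at 41.8 and 37.2 CPM in the parental and 38.98, 38.2 and 19.9 CPM in the transduced libraries. Every day 2 library lay below every day 0 library, and the log2 change was −2.43 ± 0.15 (SE, adjusted p = 1.24e-29). The long-chain acyl-CoA dehydrogenase ACADL ran from 7.90 to 17.6 CPM with a median of 12.3 on day 0 and stood at 0 and 4.01 CPM in the parental and 2.53, 2.54 and 1.62 CPM in the transduced libraries on day 2, again without overlap, a change of −2.48 ± 0.34 (SE, adjusted p = 1.23e-09). The peroxisomal bifunctional enzyme EHHADH (chromosome 3, 185190624 to 185254049) lay between 13.9 and 31.6 CPM (median 21.2) on day 0. It stood at 5.32 and 8.58 CPM in the parental and 8.10, 2.97 and 8.09 CPM in the transduced libraries on day 2, below all of these, and its change was −1.69 ± 0.23 (SE, adjusted p = 5.58e-10).

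PDK4 spares glucose when fat is burnt (chromosome 7, 95583499 to 95596516). It ranged from 10.1 to 25.8 CPM with a median of 16.4 on day 0 and had a count in only 1 of the 5 day 2 libraries. That was 171 counts in 6 libraries against 1 count in 5, a ratio of 159 with a 95% interval of 28.2 to 6325 that covers counting error only. PPARA, the receptor, lay between 9.20 and 23.9 CPM (median 13.1) on day 0 and at 7.60 and 4.58 CPM in the parental and 7.59, 6.36 and 7.01 CPM in the transduced libraries on day 2, without overlap, a change of −1.11 ± 0.28 (SE, adjusted p = 9.24e-04). PPARA was not called by DESeq2 or without the libraries of replicate b, and its adjusted p over the alternatives reached 0.299. ETFDH, which passes electrons from the dehydrogenases to ubiquinone, lay between 7.36 and 27.2 CPM (median 12.5) on day 0 and at 6.08 and 4.58 CPM in the parental and 5.06, 3.39 and 3.77 CPM in the transduced libraries on day 2. Its libraries did not overlap either, and it fell by 1.54 ± 0.27 on the log2 scale (SE, adjusted p = 1.01e-06), and the carnitine carrier SLC25A20 changed by −1.52 ± 0.17 (SE, adjusted p = 4.34e-13). HADH was the only gene called higher, at 0.54 ± 0.14 (SE, adjusted p = 0.00177), and its libraries overlapped. In all, 3 of the 34 genes had a positive change.

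The rest of the pathway moved in the same direction by count. Of 27 other mitochondrial fatty acid genes 21 fell and 1 rose, of 31 other peroxisomal genes 10 fell and 1 rose, and of 23 receptors and targets in the PPAR pathway 12 fell and 1 rose. Alongside, 10 of 12 hepatocyte markers fell, with a summed level between 10998 and 25305 CPM on day 0 and between 3151 and 3663 CPM on day 2. All 10 cell cycle genes rose, with a summed level between 154 and 461 CPM on day 0 and between 1079.5 and 1368 CPM on day 2. Of the stellate, fibroblast and endothelial markers 4 of 7 fell, from a sum between 281 and 539 CPM to one between 167 and 216 CPM, and of the leukocyte markers 2 of 2 fell, from a sum between 28.5 and 56.4 CPM to one between 14.6 and 21.3 CPM. Of the biliary and progenitor markers 1 of 4 rose and 2 fell. The part of these lists in the result was not tested. With DESeq2, 12 genes fell and 1 rose, and with the nearly empty libraries left out of DESeq2 23 fell and 1 rose.

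By day 14 most of these transcripts were higher again. Against day 2, which this comparison shares with the one before, 28 of the 34 genes rose and 0 fell, where 19.9% of all genes rose and 17.4% fell. The median log2 change was 1.12, against 0.08 for all genes. All 4 shuttle genes, 12 of 15 mitochondrial genes, 5 of 7 peroxisomal genes, 3 of 4 synthetases, both ketone body enzymes and both regulators rose. The alternatives gave between 24 and 30 rises and at most 2 falls.

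ACADL stood at 21.7 and 16.9 CPM in the parental and 16.01, 30.6 and 19.8 CPM in the transduced libraries on day 14, a rise of 3.18 ± 0.33 (SE, adjusted p = 3.18e-15) over day 2. BDH1, which reduces acetoacetate to 3-hydroxybutyrate (chromosome 3, 197509783 to 197573343), had been at 0.760 and 1.14 CPM in the parental and 0, 0.848 and 0 CPM in the transduced libraries on day 2. On day 14 it stood at 6.79 and 4.65 CPM in the parental and 2.67, 5.60 and 4.39 CPM in the transduced libraries, above every day 2 library, and its change was 2.96 ± 0.51 (SE, adjusted p = 7.26e-07). ACOX2, the peroxisomal oxidase of bile acid intermediates, reached 3.66 and 4.23 CPM in the parental and 5.34, 4.73 and 7.32 CPM in the transduced libraries and changed by 2.88 ± 0.54 (SE, adjusted p = 4.03e-06). PDK4 was back to 7.31 and 1.69 CPM in the parental and 1.78, 3.01 and 8.05 CPM in the transduced libraries, 41.2 times its day 2 level with a counting interval of 7.09 to 1657, and all of these were under its day 0 libraries.

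The days between are described by level, with no test. On day 4 the mean of ACSL1 was already 159 ± 30.5 CPM (SD, n = 6) and that of SLC25A20 52.2 ± 12.8 CPM (SD, n = 6), near their day 0 means of 194 and 49.4 CPM. BDH1 and ACOX2, which had not been called lower on day 2, were at 0.556 ± 0.451 CPM (SD, n = 6) and 0.151 ± 0.236 CPM (SD, n = 6) on day 4, and EHHADH at 9.30 ± 3.02 CPM (SD, n = 6) stayed under its day 0 mean of 21.9 CPM. The trifunctional subunits HADHA and HADHB rose by 0.57 ± 0.13 and 1.04 ± 0.13 (SE) between days 2 and 14, and both had fallen before.

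Beside this, 12 of 12 hepatocyte markers rose, to a summed level between 37745 and 54042 CPM, and 10 of 10 cell cycle genes fell, to 127 to 169 CPM. Of the stellate, fibroblast and endothelial markers 3 of 7 rose and 2 fell, and of the leukocyte markers 2 of 2 rose. Their part in the result was not tested. Among the other genes of the pathway, 20 of 27 mitochondrial, 14 of 31 peroxisomal and 15 of 23 PPAR pathway genes rose, and 1 in each list fell. The fatty acid binding protein FABP1 changed by 4.00 ± 0.16 (SE, adjusted p = 6.66e-45).

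Fresh differentiated cells on day 30 were set against the day 14 progenitors. Here the pathway split, with 9 of the 34 genes higher and 9 lower, against 11.8% and 11.5% of all genes, and a median of 0.15 against 0.04. All 4 synthetases rose, as did 3 of 7 peroxisomal genes, PDK4 and the very long-chain dehydrogenase ACADVL. Lower were 5 of 15 mitochondrial genes, 2 peroxisomal genes, the carrier SLC25A20 and the thiolase ACAT1. The other 16 genes did not pass the test.

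PDK4 stood highest here, at 66.1 and 47.2 CPM in the parental and 26.6, 26.2 and 30.2 CPM in the transduced libraries, above all day 14 libraries, with a change of 3.11 ± 0.37 (SE, adjusted p = 5.25e-11). EHHADH was at 86.4 and 80.6 CPM in the parental and 51.5, 46.7 and 62.5 CPM in the transduced libraries, a change of 1.16 ± 0.18 (SE, adjusted p = 1.10e-07) without overlap. ACSL5 rose by 1.08 ± 0.17 (SE, adjusted p = 1.27e-07) and ACSL1, ACSL3 and ACSL4 by 0.46, 0.66 and 0.68. In the falling direction SLC25A20 went from 56.7 and 60.5 CPM in the parental and 80.96, 66.3 and 67.3 CPM in the transduced libraries to 33.03 and 37.99 CPM in the parental and 25.3, 20.95 and 31.9 CPM in the transduced libraries, a change of −1.08 ± 0.16 (SE, adjusted p = 7.67e-08). ACAT1, the mitochondrial acetoacetyl-CoA thiolase at an end of ketone synthesis and breakdown, stood at 199 and 188 CPM in the parental and 222, 238 and 215 CPM in the transduced libraries on day 14. On fresh day 30 it stood at 151 and 138 CPM in the parental and 139, 104 and 145 CPM in the transduced libraries, below all of them, a change of −0.63 ± 0.13 (SE, adjusted p = 7.61e-05). It was not called by DESeq2, with RLE scaling or without replicate b (adjusted p up to 0.306). DECR1, which handles double bonds of unsaturated chains, changed by −0.64 ± 0.13 (SE, adjusted p = 8.56e-05).

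The balance of this comparison moves with the scaling while the nearly empty libraries are kept in. With RLE scaling over all 90 libraries the median of all genes shifted to 0.43 and 17 of the 34 genes were higher and 3 lower, and with DESeq2 it shifted to 0.55 with 12 higher and 1 lower. Both returned to 9 and 9 once the 3 nearly empty libraries were left out. Without the libraries of replicate a 11 genes were called and without those of replicate b 8, each of which leaves 1 usable parental library a day. Hepatocyte markers rose in 7 of 12, to a summed 61623 to 90935 CPM, and 3 of 7 stellate, fibroblast and endothelial markers fell. Cell cycle genes rose in 7 of 10, to 222 to 293 CPM, which was not tested as a part of the result. ACSM2A, a medium-chain synthetase whose reads may be shared with its near copy ACSM2B, was higher by 2.17 ± 0.16 (SE, adjusted p = 3.49e-19).

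**Figure D2:**
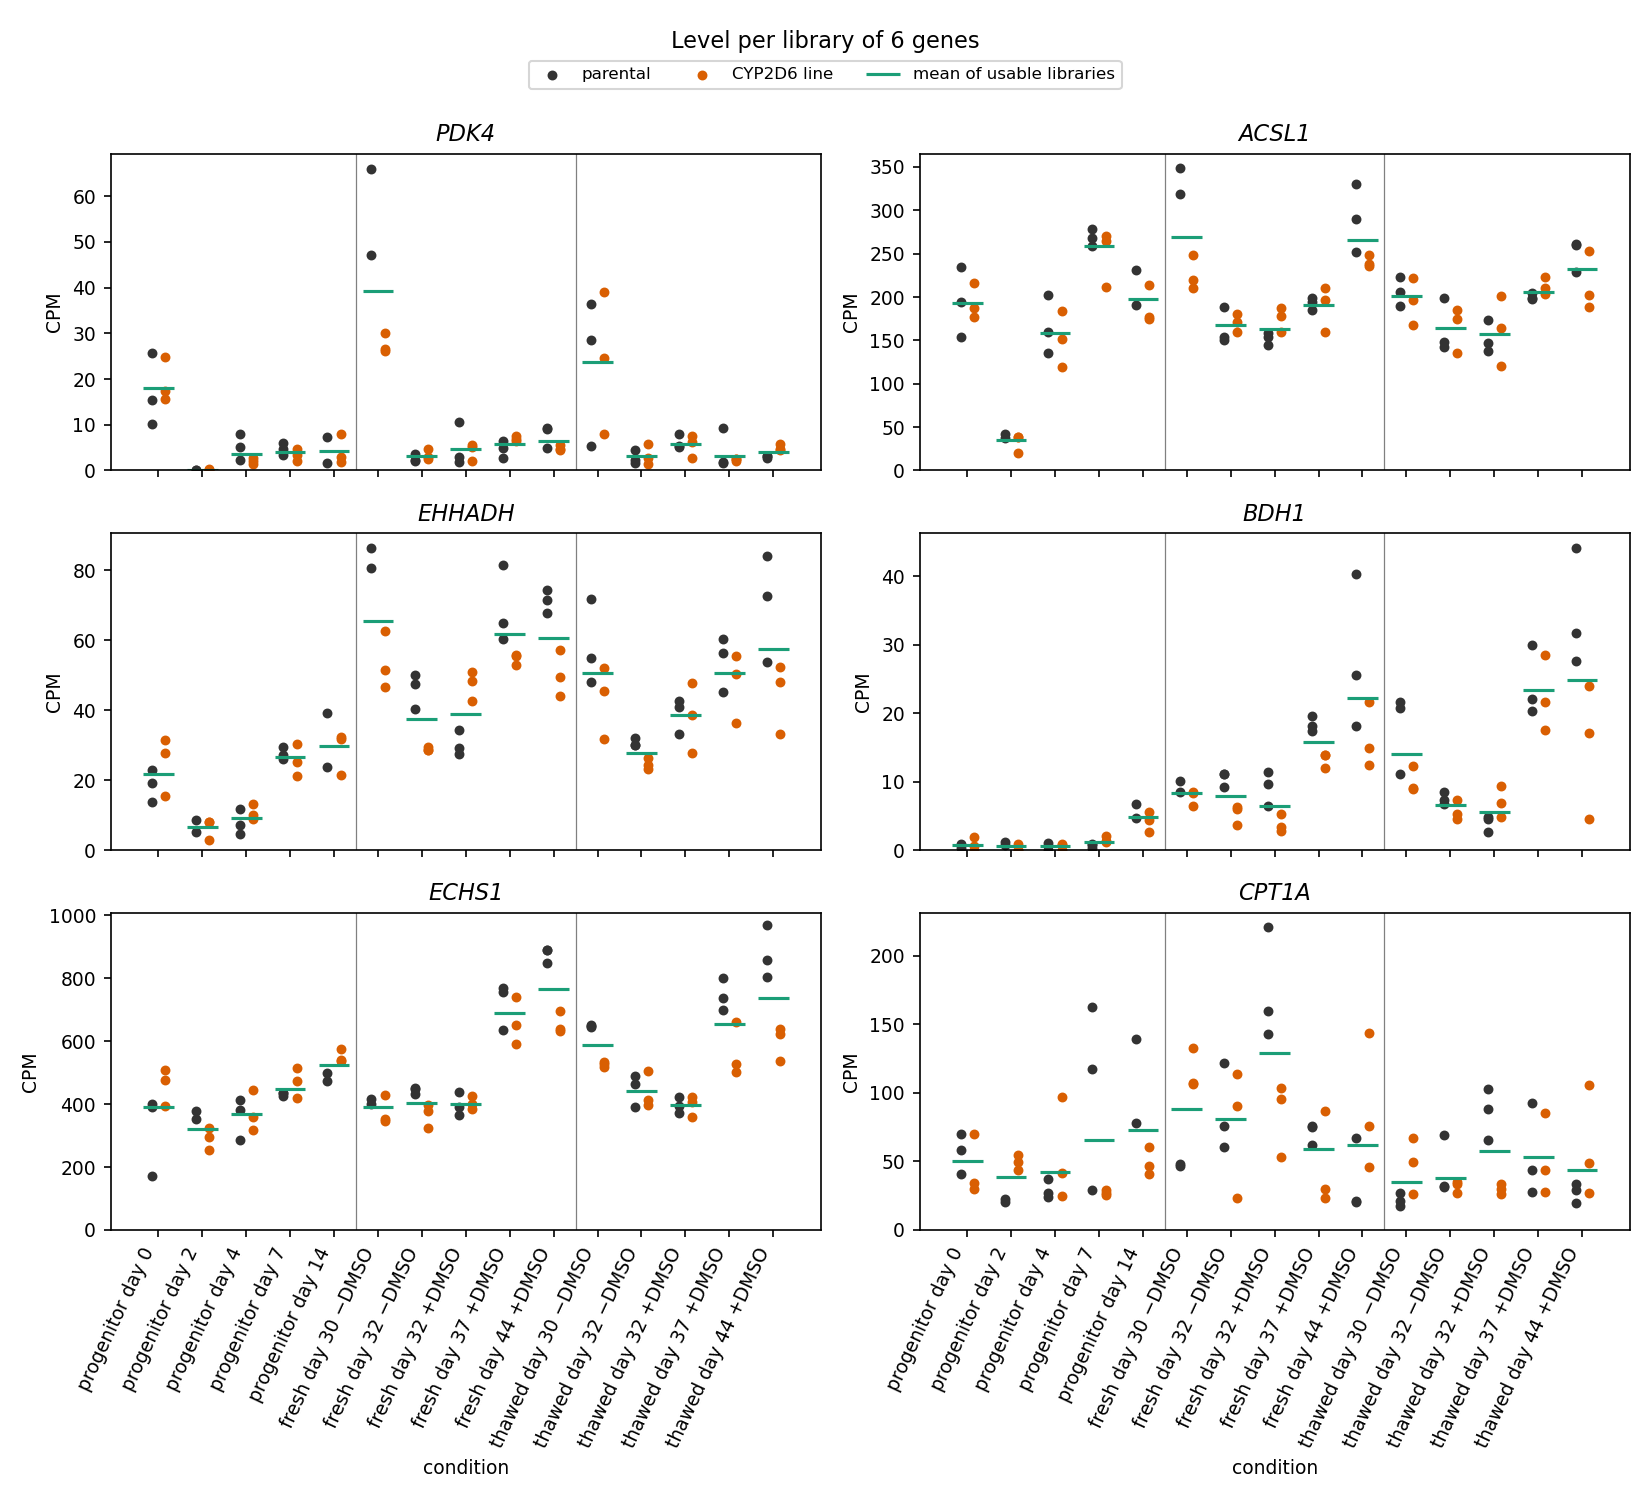
Level of 6 genes in each usable library, in CPM, by condition, with parental libraries in black, transduced libraries in orange and the mean of all usable libraries of a condition as a green bar. PDK4 is high in the libraries of day 0, of fresh day 30 and of thawed day 30 other than replicate c, BDH1 and ECHS1 are highest on days 37 and 44, and the CPT1A libraries of 1 condition lie far apart.

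After day 30 the differentiated cells were followed to day 32 without DMSO. In fresh cells 11 of the 34 genes fell and 0 rose, against 8.19% of all genes lower and 9.11% higher. All 4 synthetases, both regulators, 3 of 7 peroxisomal genes, CPT2 and ACADVL made up the 11. The fresh day 30 libraries are shared with the comparison against day 14. In thawed cells 6 fell and 0 rose, against 5.91% and 5.5% of all genes. The falls common to both were PDK4, EHHADH and ACAA1, 27.3% of the fresh and 50% of the thawed list. These shares have no counterpart over all tested genes here. Of 23 PPAR pathway genes 2 rose and 1 fell in fresh cells, and 3 rose and 4 fell in thawed cells. Of 27 other mitochondrial genes 2 rose and 6 fell in fresh cells, and 0 rose and 5 fell in thawed cells. Of 31 other peroxisomal genes 4 and 3 fell and 0 rose. Of 7 other ketone genes 1 rose in fresh cells, and 1 rose and 1 fell in thawed cells.

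PDK4 lay between 2.00 and 4.76 CPM (median 2.80) in fresh cells on day 32, below every day 30 library, a change of −3.69 ± 0.37 (SE, adjusted p = 6.37e-14). In thawed cells it had been at 28.5, 36.4 and 5.41 CPM in the parental and 39.0, 24.6 and 7.93 CPM in the transduced libraries on day 30, with the replicate c libraries of both genotypes low. On thawed day 32 it lay between 1.33 and 5.88 CPM (median 2.55), which overlaps those low libraries, a change of −2.87 ± 0.37 (SE, adjusted p = 9.06e-10). Over the 13 alternatives, leaving out replicate c among them, this change lay between −3.13 and −2.44 and was called in each. EHHADH changed by −0.86 ± 0.17 (SE, adjusted p = 4.22e-05) in fresh and −0.85 ± 0.17 (SE, adjusted p = 5.00e-05) in thawed cells. ACAA1, the peroxisomal thiolase, stood at 156 and 163 CPM in the parental and 94.3, 116 and 116 CPM in the transduced libraries on fresh day 30 and lay between 60.2 and 106 CPM (median 85.6) on day 32, with some overlap. It changed by −0.68 ± 0.13 there and by −0.74 ± 0.13 (SE) in thawed cells, where the days did not overlap.

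The synthetases differed in their calls between the cell kinds. ACSL1 went from 319 and 349 CPM in the parental and 211, 248 and 219 CPM in the transduced libraries on fresh day 30 to a range from 150.5 to 188 CPM with a median of 166 on day 32, a change of −0.70 ± 0.13 (SE, adjusted p = 9.60e-06). In thawed cells it ranged from 168 to 223 CPM with a median of 201 on day 30 and from 135 to 199 CPM with a median of 162 on day 32, and the change of −0.29 did not pass the test (adjusted p = 0.114). Whether the synthetase changes differ between fresh and thawed cells was not tested. CPT2, which releases acyl-CoA inside the mitochondrion, stood at 25.4 and 25.5 CPM in the parental and 21.4, 21.4 and 21.1 CPM in the transduced libraries on fresh day 30 and lay between 8.33 and 16.1 CPM (median 13.3) on day 32. These did not overlap, and it fell by 0.91 ± 0.24 on the log2 scale (SE, adjusted p = 0.00366), though not once replicate b was left out (adjusted p = 0.0914). BDH1 in turn fell in thawed cells, from 13.99 ± 5.75 CPM (SD, n = 6) to 6.62 ± 1.46 CPM (SD, n = 6), −1.01 ± 0.28 (SE, adjusted p = 0.00669). It was not called without replicate a or without replicate c (adjusted p up to 0.0994). In fresh cells it was at 7.93 ± 3.08 CPM (SD, n = 6) after 8.38 CPM on day 30, and the difference from thawed cells was not tested.

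Hepatocyte markers fell in 8 of 12 in fresh and 7 of 12 in thawed cells, with day 32 sums between 43407 and 64918 CPM in fresh and between 44365 and 63243 CPM in thawed cells, after sums between 61623 and 90935 CPM and between 57867 and 86605 CPM on day 30. Cell cycle genes rose in 2 and 4 of 10, and of 7 stellate, fibroblast and endothelial markers 2 rose and 1 fell in fresh and 1 rose in thawed cells. Their part was not tested. With RLE scaling over all libraries the medians of all genes shifted to −0.32 in fresh and −0.11 in thawed cells, and 21 and 13 of the 34 genes were lower. With RLE scaling without the nearly empty libraries these medians were 0.002 and −0.004. Calls over all tested genes dropped in both kinds of cells whenever a replicate letter was left out. Leaving out replicate a or b gave 7 falls each in fresh cells, and without replicate a 3 fell in thawed cells.

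The effect of DMSO was read on day 32. On fresh day 32 with against without DMSO 0 of the 34 genes were called in edgeR, where 0.478% of all genes rose and 1.67% fell. At an unadjusted p under 0.05 there were 4, where 13.2% of all genes were, and DESeq2 called 0, or 1 without the nearly empty libraries. In thawed cells ACAA1 rose and SLC25A20, ACAA2 and ACADM fell, 1 and 3 genes against 2.28% and 4.77% of all genes. ACAA2 ranged from 287 to 409 CPM with a median of 335 without and from 214 to 277 CPM with a median of 256 with DMSO, with no overlap, a change of −0.45 ± 0.10 (SE, adjusted p = 0.00171). SLC25A20 changed by −0.55 ± 0.15 (SE, adjusted p = 0.0121) and ACAA1 by 0.43 ± 0.13 (SE, adjusted p = 0.0248).

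The thawed result depends on scaling with the nearly empty libraries kept in, and on single replicates. Under RLE scaling over all libraries 9 genes rose and 0 fell, with the median of all genes at 0.29, under DESeq2 4 rose and 0 fell, and 0 or 1 gene was called when replicate a, b or c was left out. Without the nearly empty libraries the median of all genes was 0.027 under both methods, against 0.028 in the main fit. The difference between the DMSO effects of thawed and fresh cells was called for 0 of the 34 genes by edgeR and by DESeq2, with 0.0% and 0.0165% of all genes, and 2 had an unadjusted p under 0.05, as had 5.72% of all genes. Outside the list, 3 and 7 of 23 PPAR pathway genes and 2 and 2 of 7 other ketone genes fell with DMSO in fresh and thawed cells, and 0 rose. Of 27 other mitochondrial and 31 other peroxisomal genes 0 were called. FABP1 changed with DMSO by −1.32 ± 0.12 (SE, adjusted p = 2.74e-15) in fresh and −0.95 ± 0.12 (SE, adjusted p = 1.05e-09) in thawed cells. Of the 12 hepatocyte markers 1 rose and 1 fell in fresh cells, and 1 rose and 6 fell in thawed cells, where the summed level was 33871 to 43218 CPM with DMSO. Their part was not tested.

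From day 32 to day 44 with DMSO many of the genes rose in both kinds of cells. In fresh cells 16 of the 34 genes rose and 1 fell, against 6.63% and 5.26% of all genes, with a median of 0.46 against −0.015. In thawed cells 11 rose and 1 fell, against 5.72% and 4.01%, with a median of 0.31 against −0.03. All 11 rises in thawed cells were among the 16 in fresh cells, 100% of the thawed and 68.8% of the fresh list, and the 2 comparisons share no library. The overlap of calls over all tested genes is not given here, so these shares cannot be read as particular to the 34 genes. By role the rises were 1 and 1 of 4 shuttle genes, 5 and 4 of 15 mitochondrial, 5 and 3 of 7 peroxisomal, 2 and 1 of 4 synthetases and both ketone body enzymes in fresh and thawed cells. PPARA rose by 0.61 ± 0.21 (SE, adjusted p = 0.0387) in fresh cells, while its change of 0.23 in thawed cells did not pass the test (adjusted p = 0.604). Whether these differ was not tested. The call in fresh cells ended in 6 of 13 alternatives, DESeq2, RLE scaling and leaving out replicate a or b among them, with a change down to 0.31 and an adjusted p up to 0.553.

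BDH1 rose most in both. It ranged from 2.75 to 11.5 CPM with a median of 5.84 on fresh day 32 and from 12.4 to 40.4 CPM with a median of 19.96 on day 44, without overlap, a change of 1.80 ± 0.29 (SE, adjusted p = 5.10e-07). Thawed cells lay between 2.70 and 9.35 CPM (median 4.86) on day 32 and between 4.60 and 44.1 CPM (median 25.8) on day 44. On day 44, 1 transduced library at 4.60 CPM lay within the day 32 values, and the others lay above them. The change was 2.06 ± 0.28 (SE, adjusted p = 1.22e-09). ACOX2 ranged from 1.97 to 7.79 CPM with a median of 5.70 and then from 10.1 to 18.2 CPM with a median of 11.2 in fresh cells, and changed by 1.44 ± 0.34 (SE, adjusted p = 7.66e-04) and in thawed cells by 1.51 ± 0.32 (SE, adjusted p = 1.71e-04).

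ECHS1, the enoyl-CoA hydratase of the matrix, ranged from 364 to 439.6 CPM with a median of 395 on fresh day 32 and from 633 to 890.0 CPM with a median of 773 on day 44, without overlap, and changed by 0.92 ± 0.12 (SE, adjusted p = 1.48e-10). In thawed cells it ranged from 359.7 to 424 CPM with a median of 400.0 and from 537 to 968 CPM with a median of 721, again apart, with 0.87 ± 0.11 (SE, adjusted p = 8.16e-10). HADH, the short-chain hydroxyacyl dehydrogenase of the next step, changed by 0.90 ± 0.14 and 0.80 ± 0.13 (SE), and the thiolase ACAA2 by 0.73 ± 0.11 and 0.67 ± 0.11. ECHS1, HADH and ACAA2 thus rose in both, whereas HADHA and HADHB had changes of −0.02 and −0.02 in fresh and −0.03 and −0.05 in thawed cells and did not pass the test. The carrier SLC25A20, the long-chain synthetase ACSL1 and DECR1 rose in both as well. The acyl-CoA dehydrogenases ACADM and ACADS were not called in thawed cells. A difference between these genes, or by chain length, was not tested.

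Against the direction of the rest, CPT1A fell in fresh cells by 1.11 ± 0.37 (SE, adjusted p = 0.0359) and ACSL5 in thawed cells by 0.54 ± 0.15 (SE, adjusted p = 0.0086), the latter not without replicate b or c (adjusted p up to 0.408). ACAT1 rose by 0.47 ± 0.12 and 0.52 ± 0.12 (SE) in fresh and thawed cells, and was not called without replicate a in either or without replicate b in fresh cells. Of the other genes of the pathway in fresh and thawed cells, 9 and 4 of 27 mitochondrial, 6 and 5 of 31 peroxisomal and 7 and 8 of 23 PPAR pathway genes rose. Of 7 other ketone genes 3 and 2 rose. In fresh cells 0 genes of these lists fell, and in thawed cells 1 peroxisomal and 2 PPAR pathway genes fell.

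All 12 hepatocyte markers rose in both kinds of cells, with day 44 sums between 75222 and 120088 CPM in fresh and between 68414 and 126225 CPM in thawed cells. On day 32 with DMSO the sums had been between 42016 and 53468 CPM and between 33871 and 43218 CPM. Of 10 cell cycle genes 10 and 9 fell, and of 7 stellate, fibroblast and endothelial markers 2 fell in fresh cells and 1 rose and 1 fell in thawed cells. This was not tested as a part of the result. Without replicate a or b 11 and 10 genes were called in fresh cells, and 10 in thawed cells without replicate a, b or c.

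**Figure D3:**
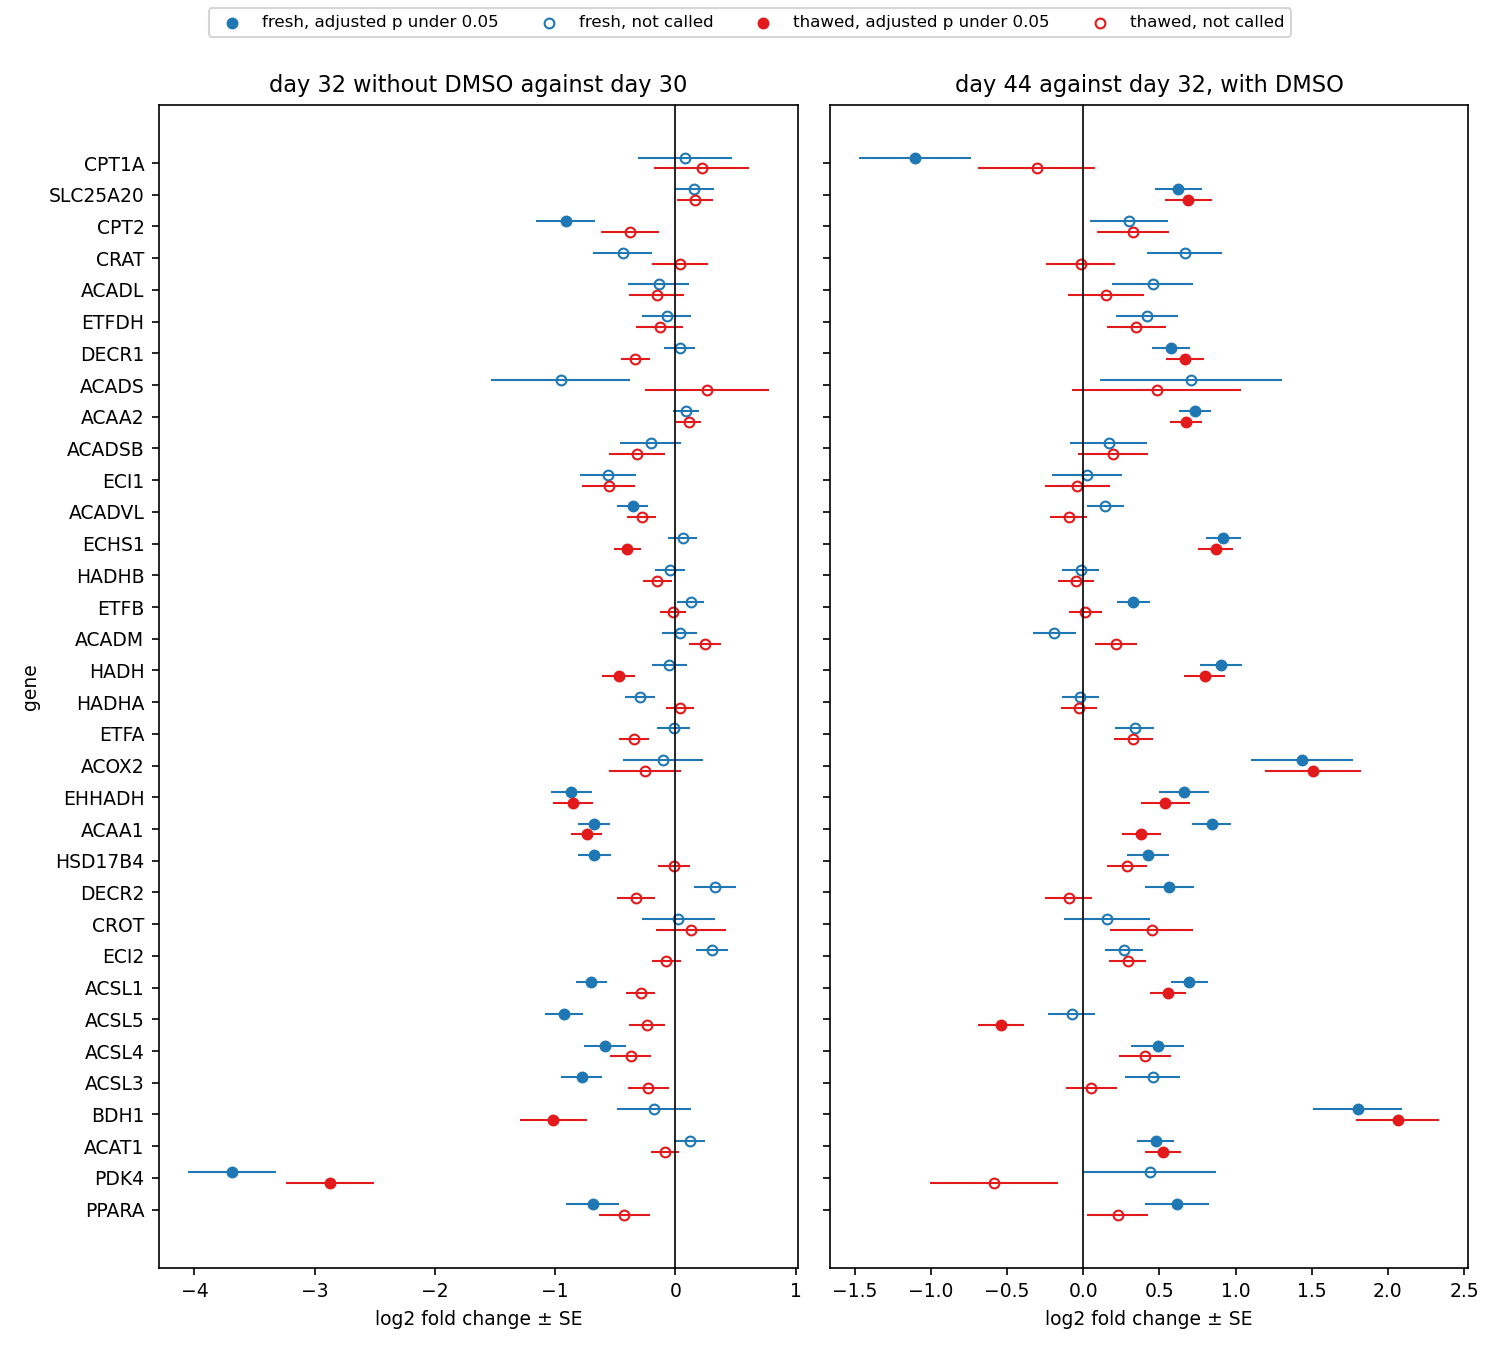
Log2 fold change with its standard error for the 34 genes in fresh (blue) and thawed (red) cells, from day 30 to day 32 without DMSO on the left and from day 32 to day 44 with DMSO on the right, with filled points for an adjusted p under 0.05. PDK4 lies far to the left at −3.69 and −2.87 in the left panel, and BDH1 and ACOX2 lie farthest to the right in the right panel.

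Thawed were next compared with fresh cells on the same day. On day 30, 7 of the 34 genes were higher and 5 lower in thawed cells, against 9.73% and 6.36% of all genes. Higher were DECR2, ECHS1, HADH, ETFB, DECR1, ECI2 and, at 0.37, ETFA. Lower were CPT1A, ACSL3, ACSL5, ACSL1 and HSD17B4, a peroxisomal bifunctional enzyme. DECR2, the peroxisomal partner of DECR1, stood at 26.7 and 39.3 CPM in the parental and 34.04, 44.7 and 29.3 CPM in the transduced libraries in fresh cells and ranged from 46.9 to 64.6 CPM with a median of 57.8 in thawed cells, without overlap, a difference of 0.73 ± 0.17 (SE, adjusted p = 0.00133). ECHS1 was at 418 and 399.5 CPM in the parental and 353, 348 and 429.9 CPM in the transduced libraries in fresh cells and ranged from 519 to 653 CPM with a median of 589 in thawed cells, 0.59 ± 0.12 (SE, adjusted p = 2.32e-04).

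This direction depends on the scaling while the nearly empty libraries are kept in. Under RLE scaling over all libraries the median of all genes was −0.46 and 0 of the 34 genes were higher and 16 lower, and under DESeq2 it was −0.75 with 0 higher and 11 lower, while both gave 7 or 8 higher and 5 lower without the nearly empty libraries. ETFA, at 0.37 above, turned to −0.04 in each of the former. With replicate a left out, which leaves 1 usable parental library of fresh day 30, 0 genes were called, and 3 without replicate b. Calls over all tested genes also dropped in both settings, so these counts cannot be read as particular to the 34 genes. Of the hepatocyte markers 0 rose and 2 fell, with a summed 57867 to 86605 CPM in thawed cells, and 1 cell cycle gene rose and 1 fell, which was not tested further.

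On day 44 no difference between thawed and fresh cells was called. By edgeR 0 of the 34 were called, and by DESeq2 0, against 0.0495% and 0.0577% of all genes, and 4 had an unadjusted p under 0.05, as had 7.43% of all genes. BDH1 differed by 0.09 ± 0.24 (SE, adjusted p = 0.955) and ECHS1 by −0.06 ± 0.11 (SE, adjusted p = 0.923). Fitted to the 12 libraries alone, 1 gene was lower in thawed cells. PPARA ranged from 21.2 to 50.2 CPM with a median of 36.8 in fresh and from 27.1 to 38.3 CPM with a median of 32.8 in thawed cells. FABP1 was lower in thawed cells by 0.58 ± 0.12 on the log2 scale (SE, adjusted p = 0.0106).

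CPT1A encodes the carnitine palmitoyltransferase that sets the rate of entry into mitochondria (chromosome 11, 68754620 to 68844277), and its libraries scattered most of the 34 genes. Its biological coefficient of variation within groups was 0.431, against a median of 0.166 for the 1177 genes of like mean count, 95.6% of which varied less. On progenitor day 7 it stood at 163, 117 and 29.5 CPM in the parental and 26.8, 25.7 and 29.4 CPM in the transduced libraries. On fresh day 44 the values were 20.8, 20.4 and 67.2 CPM in the parental and 75.7, 144 and 46.2 CPM in the transduced libraries. High and low libraries thus lie within 1 group and on either side of the genotypes. Its highest mean was on fresh day 32 with DMSO, 129 ± 58.4 CPM (SD, n = 6), and its lowest on thawed day 30, 34.7 ± 19.4 CPM (SD, n = 6). Of its 3 calls, the rise to progenitor day 14, the fall to fresh day 44 and the lower level on thawed day 30, each was lost without replicate a and without replicate b, with adjusted p up to 0.339, 0.318 and 0.211.

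The transduced line was compared with the parental line over all 5 conditions of a cell state. In progenitors DECR1 was higher and CRAT lower, 1 and 1 of 34 genes against 1.09% and 0.322% of all genes. In fresh cells 0 were higher and 5 lower, BDH1, ACAA1, ACAA2, ETFA and HADHA, against 1.51% and 1.74%. In thawed cells 0 were higher and 2 lower, ACAA2 and ECHS1, against 0.792% and 1.34%. The median of the 34 genes was 0.02 in progenitors, −0.18 in fresh and −0.16 in thawed cells, with 19, 4 and 6 of them on the positive side.

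In fresh cells BDH1 ranged from 6.42 to 40.4 CPM with a median of 11.3 (n = 14) in the parental and from 2.75 to 21.7 CPM with a median of 8.29 (n = 15) in the transduced libraries. These ranges span 5 conditions and overlap, but the transduced mean was lower in 5 of 5 conditions, and the difference was −0.73 ± 0.19 (SE, adjusted p = 0.0103). ACAA1 was likewise lower in 5 of 5 conditions, by 0.44 ± 0.08 on the log2 scale (SE, adjusted p = 1.66e-04), and ACAA2 in 5 of 5, by 0.28 ± 0.07 on the log2 scale (SE, adjusted p = 0.0057). In thawed cells ACAA2 ranged from 214 to 487 CPM with a median of 388 (n = 15) in parental and from 214 to 346 CPM with a median of 292 (n = 15) in transduced libraries, lower in 4 of 5 conditions, −0.34 ± 0.07 (SE, adjusted p = 2.43e-04). ECHS1 was lower in 5 of 5, by 0.26 ± 0.07 on the log2 scale (SE, adjusted p = 0.0324). CRAT, the carnitine acetyltransferase, differed by −0.62 ± 0.16 (SE, adjusted p = 0.0219) in progenitors, where it was lower in 5 of 5 conditions, and lay higher in 4 of 5 conditions of thawed cells, a difference there that did not pass the test (adjusted p = 0.388). In fresh cells BDH1 was not called when replicate a, b or c was left out (adjusted p up to 0.248), nor ACAA2 without a or b (up to 0.378), whereas ACAA1 was called in every alternative (up to 0.0486). In thawed cells ACAA2 was not called without replicate b (up to 0.199) and ECHS1 not without a or b (up to 0.531).

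Whether the genotype difference changed with differentiation was tested directly as fresh minus progenitor difference. For 3 of the 34 genes it was lower and for 0 higher, against 1.22% and 0.14% of all genes. SLC25A20 was at 0.23 in progenitors and at −0.31 in fresh cells, neither passing alone, and −0.54 ± 0.14 (SE, adjusted p = 0.0168) between them. ACAA2 went from 0.13 to −0.28, −0.41 ± 0.10 (SE, adjusted p = 0.00684), and DECR1 from 0.29 to −0.12, −0.41 ± 0.11 (SE, adjusted p = 0.0351).

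Hepatocyte markers moved with these calls: 4 of 12 were higher in transduced progenitors, 5 of 12 lower in transduced fresh and 6 of 12 lower in transduced thawed cells, and 6 of 12 had a lower difference in fresh than in progenitor cells. Their part was not tested. The counts are small and shift with the setting, from 1 to 14 lower genes in fresh cells and from 0 to 8 in thawed cells, with no gene higher under any alternative. Calls over all tested genes dropped too whenever a replicate letter was left out. Without replicate a, without replicate b, without the parental progenitor day 14 library a, or with the progenitor libraries fitted alone, 0 genes were called in progenitors. Of the related genes FABP1 changed by −0.52 ± 0.08 (SE, adjusted p = 1.11e-06) in fresh and −0.57 ± 0.08 (SE, adjusted p = 3.90e-08) in thawed cells, and the peroxisomal sterol carrier SCP2 by −0.47 ± 0.08 (SE, adjusted p = 2.29e-05) and −0.36 ± 0.08 (SE, adjusted p = 0.0015).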

How the data were processed

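RNA of 90 HepaRG libraries was measured by a bulk barcoded 3′ method from 10 ng of total RNA. The authors deposited raw counts per gene and library. The submitters' processing notes name BWA 0.7.4.4 and the builds hg38 and mm10 with no role, and the annotation, strand and treatment of molecular identifiers are not given in the sources used here. The deposited counts were scaled by TMM and fitted in edgeR 4.0.16 (limma 3.58.1, R 4.3.3) with 1 mean per group over all 90 libraries, which leaves 60 residual degrees of freedom, after a filter on low counts. Quasi-likelihood tests were adjusted by Benjamini-Hochberg over 12125 genes, and a call is an adjusted p under 0.05. CPM and log2 fold changes were computed here, and means, SDs and ranges leave out 3 libraries under 0.25 times the median total, which stay in the fit. A change averages both genotypes, and a genotype difference averages 5 conditions. The members and lists were chosen with earlier results of these data known. All members may be named, led by the largest changes called, with libraries given for a panel of widest range by role, and other lists by counts and their 2 genes of smallest p. Alternatives were DESeq2 1.42.0, RLE scaling, other filters, leaving out libraries or replicate letters, a replicate block, and fits to the libraries compared. Leaving out the parental progenitor day 14 library of replicate a was chosen after seeing the data. The script was tested on simulated data. Mitochondrially encoded transcripts could not be followed, since no symbol searched for them matched a row of the deposited table. No 2 libraries of a group agreed within sampling noise. Replicate letters did not pair the samples.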

Additional observations from a re-analysis of the deposited data

Results flagged for a closer look

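In fresh cells the gap between the lines was not that of progenitors for 3 genes, by edgeR's interaction test with Benjamini-Hochberg adjustment. SLC25A20 stood at 0.23 ± 0.10 in progenitors, where the transduced mean was higher in 4 of 5 conditions, and at −0.31 ± 0.10 (SE) in fresh cells, where it was lower in 5 of 5, a difference of −0.54 ± 0.14 (SE, adjusted p = 0.0168). For ACAA2 the values were 0.13 ± 0.07 and −0.28 ± 0.07, and the difference was −0.41 ± 0.10 (SE, adjusted p = 0.00684). For DECR1 they were 0.29 ± 0.08 and −0.12 ± 0.08, and the difference was −0.41 ± 0.11 (SE, adjusted p = 0.0351). Without replicate a such a difference was called for 0 of the 34 genes, without replicate b for 1 and without replicate c for 2. Calls over all tested genes dropped in each of these settings too. In the same interaction test 6 of 12 hepatocyte markers were lower, and their part was not tested.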

How the results depend on the processing

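Of 145 calls on the 34 genes, 66 ended in none of the alternatives that gave a value (up to 13) and 79 ended in at least 1, and 1 turned its sign: ETFA in thawed against fresh day 30, at −0.0418 under DESeq2 and −0.0372 under RLE scaling. Counts of called genes follow, with the cause of a move not tested. DESeq2 gave 13 for progenitors day 2 against day 0, 1 for genotype in progenitors, 8 for genotype in fresh cells and 1 for genotype effect fresh minus progenitors. DESeq2 without the nearly empty libraries gave 1 for fresh day 32 with against without DMSO, 8 for genotype in fresh cells, 5 for genotype in thawed cells and 6 for genotype effect fresh minus progenitors. RLE scaling gave 21 for fresh day 32 without DMSO against day 30, 1 for fresh day 32 with against without DMSO, 13 for thawed day 32 without DMSO against day 30, 9 for thawed day 32 with against without DMSO, 14 for genotype in fresh cells and 8 for genotype in thawed cells. It also called more of all 12125 genes in each comparison, such as 2924 after 2098 in fresh day 32 without DMSO against day 30. With no filter on low counts the DMSO comparisons gave 1 and 1, the genotype comparisons 1, 2 and 1, and genotype effect fresh minus progenitors 0. Fits to only the libraries compared gave 1 for fresh day 32 with against without DMSO, 11 for thawed day 32 without DMSO against day 30, 8 for thawed day 32 with against without DMSO, 1 for thawed against fresh day 44, 0 for genotype in progenitors, 4 for genotype in thawed cells and 1 for genotype effect fresh minus progenitors. Leaving out 1 replicate letter or library gave 8 to 17 for fresh day 30 against progenitors day 14, 7 to 11 for fresh day 32 without DMSO against day 30, 10 to 16 for fresh day 44 against day 32 with DMSO, 3 to 7 for thawed day 32 without DMSO against day 30, 0 to 4 for thawed day 32 with against without DMSO, 0 to 11 for thawed against fresh day 30, 0 to 1 for genotype in progenitors, 1 to 5 in fresh and 0 to 2 in thawed cells, and 0 to 4 for genotype effect fresh minus progenitors. Calls over all tested genes dropped too in each comparison between groups when a replicate letter was left out. In thawed day 32 with against without DMSO they went from 854 to 291 without replicate a. For genotype in thawed cells they went from 259 to 60 without replicate b. Scaling over all 90 libraries also moved the share of all calls that were higher, from 50.5% to 87.4% (RLE) and 92.0% (DESeq2) in fresh day 30 against progenitors day 14 and from 60.5% to 3.94% and 0.525% in thawed against fresh day 30. Without the nearly empty libraries the shares were 48.3% (RLE) and 48.3% (DESeq2) in the former and 62.6% and 63% in the latter. The replicate block changed 12 calls to 11 in thawed against fresh day 30 and 5 to 4 for genotype in fresh cells, and no other count. The letters did not pair the samples: the median correlation of residuals was −0.00169 for the same letter and −0.000571 for other letters. Low genes such as BDH1 and PDK4 rest on few counts in early progenitors.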
